A study of Homo sapiens with 4 samples.

Results

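SCGN, RBM46, WDR72, RIPOR3 and TNFRSF19 are 5 of the 19912 genes counted in endothelial cells with and without GFI1. They were chosen by their TMM-scaled CPM in these same libraries, lower in the GFI1 knockout than in wild type, and because they are little studied. Their values in that contrast are therefore given as a description with no test. The cells were endothelial, differentiated from H1, an established human embryonic stem cell line, and positive for a GATA2/eGFP reporter. The GFI1-KO group (2 libraries, genotype GFI1KO) was set against the WT group (2 libraries, unmodified genotype), and all 4 libraries share the H1 background and the reporter. The sources used here do not say which part of GFI1 was altered, how many clones were used, or whether replicates came from separate differentiations.

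The genes have unrelated functions. SCGN encodes secretagogin, an EF-hand calcium-binding protein best known from pancreatic islets and neuroendocrine cells. RBM46 encodes an RNA-binding protein that mouse germ cells need to enter and complete meiosis. WDR72 encodes a WD-repeat protein required for enamel maturation and related to the rabconnectin subunit WDR7, a partner of the proton pump V-ATPase. RIPOR3 belongs to a small family whose better-known members RIPOR1 and RIPOR2 act in cell polarity and migration. TNFRSF19, also called TROY, is a TNF receptor superfamily member that can join the Nogo receptor complex in neurons and is a target of Wnt/beta-catenin signalling. GFI1 itself is a zinc-finger repressor that works with LSD1 and CoREST during the passage from endothelium to blood.

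Start regions are shown because GFI1 and GATA2, both lower in the knockout, bind DNA, and the letters of their sites can be counted there. RefSeq (GRCh38.p14) gives 7 start regions for the 5 genes, each of 300 bases from 250 before to 50 after the start. The windows of SCGN and RBM46, the pair with the most similar pattern, and the TNFRSF19 window with the most matches are printed 5′ to 3′. Capitals mark the core of the GFI1 site, AATC, and a GATA factor site, GATAA, on either strand, so that a match on the minus strand reads as the reverse complement. The windows are SCGN chr6:25651965-25652264, RBM46 chr4:154781022-154781321 and TNFRSF19 chr13:23570162-23570461, all on the plus strand.
SCGN: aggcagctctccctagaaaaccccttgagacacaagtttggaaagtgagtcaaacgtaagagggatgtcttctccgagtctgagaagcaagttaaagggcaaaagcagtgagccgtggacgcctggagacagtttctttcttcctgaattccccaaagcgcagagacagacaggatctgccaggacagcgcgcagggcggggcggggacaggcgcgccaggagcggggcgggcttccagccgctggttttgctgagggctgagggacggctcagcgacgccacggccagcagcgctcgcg
RBM46: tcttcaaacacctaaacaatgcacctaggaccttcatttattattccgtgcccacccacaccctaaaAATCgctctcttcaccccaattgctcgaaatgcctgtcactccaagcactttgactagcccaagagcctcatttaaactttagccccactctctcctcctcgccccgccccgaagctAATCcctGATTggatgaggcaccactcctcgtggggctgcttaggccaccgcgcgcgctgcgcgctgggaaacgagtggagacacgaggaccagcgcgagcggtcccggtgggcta
TNFRSF19: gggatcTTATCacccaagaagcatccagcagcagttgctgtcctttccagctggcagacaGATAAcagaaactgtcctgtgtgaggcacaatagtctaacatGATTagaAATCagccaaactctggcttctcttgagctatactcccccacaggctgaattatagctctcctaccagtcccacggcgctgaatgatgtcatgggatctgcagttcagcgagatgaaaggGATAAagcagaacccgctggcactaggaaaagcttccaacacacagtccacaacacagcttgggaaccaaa

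The SCGN window held 0 matches to either motif. The RBM46 window held 3 matches to AATC, at -183, -66 and -59 from the start site, and the TNFRSF19 window held 2, at -148 and -141. The TNFRSF19 window also held 3 matches to GATAA, at -244, -190 and -21, and no base lay in matches to both motifs. Of the 4 windows not printed, the second RBM46 window held 1 AATC match, the RIPOR3 window 1 GATAA match, and the WDR72 and second TNFRSF19 windows 0 of either. On both strands, AATC was found in 69.0% and GATAA in 22.7% of 35116 RefSeq windows of this length, so the matches are common letters. The longer GFI1 motif AATCNNNGC (11.0% of windows) and the RUNX motif TGTGGT (13.1%) had 0 matches in the 7 windows, which says only that these letters are not there. The windows also differed in base composition, between 38.7% G and C with 1 CpG at WDR72 and 72.7% with 27 CpG at the second TNFRSF19 start, around a median of 58.7% and 14 CpG over all windows. The RIPOR3 window starts 54.7 kb inside the GENCODE span of the gene, so it may not be the start used in these cells.

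The libraries were shallow, and GFI1-KO replicate 1 was far shallower than the rest. It held 146584 counts, against 2332621 in GFI1-KO replicate 2, and 2239214 and 2417410 in WT replicates 1 and 2. Levels are given as TMM-scaled CPM, that is read counts relative to a library total that edgeR's TMM factor has corrected. Their exact 95% Poisson intervals cover counting error only. Replicates differed by more than counting error, with a chi-square per degree of freedom of 4.67 between WT libraries (12053 genes) and 2.73 between GFI1-KO libraries (6018 genes). The intervals, and those of pooled ratios, are thus too narrow for differences between libraries. A count of 0 allows up to 3 counts, which is 19.9 CPM in GFI1-KO replicate 1 and 1.26 to 1.34 CPM in the other libraries. GFI1, the gene knocked out, had 3 and 44 counts in GFI1-KO libraries and 131 and 139 in WT libraries (log2 fold change -1.57, SE 0.31, edgeR adjusted p = 0.0215). GATA2, the reporter gene, had 21 and 279 counts in GFI1-KO and 657 and 600 in WT (log2 fold change -1.09, SE 0.24, edgeR adjusted p = 0.0376). The GFI1 call was kept in 10 of 14 alternative fits and the GATA2 call in 7 of 14. All 13 endothelial markers examined could be tested, with summed levels of 9784 and 11449 CPM in GFI1-KO and 8046 and 8369 CPM in WT, and 1 of them, the endomucin gene EMCN, rose (log2 fold change 2.38, SE 0.41, edgeR adjusted p = 0.00959), beside 0.773% of all genes called higher. In 10 of the 13 both GFI1-KO libraries lay above both WT libraries, beside 18.6% of all genes tested. In bulk libraries fewer cells of a type and less RNA per cell cannot be told apart.

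In the GFI1-KO libraries SCGN, RBM46 and WDR72 were close to the limit of detection, while RIPOR3 and TNFRSF19 still had 42 and 53 counts in GFI1-KO replicate 2. Of the 11380 genes tested, 3 had at least 37 counts in each WT library and at most 5 in GFI1-KO replicate 2. These 3 were SCGN, RBM46 and WDR72. Both limits are values of these genes, of SCGN in WT replicate 2 and of WDR72 in GFI1-KO replicate 2. That the 3 pass was therefore fixed in advance. The 5 genes were places 1, 2, 3, 8 and 10 among the 21 genes called lower at an adjusted p under 0.05 by edgeR, out of a background of 0.185% of genes tested called lower. Since the contrast chose the 5 genes, nothing is read from that count of 3 or from these places.

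SCGN had 0 and 2 counts in GFI1-KO replicates 1 and 2, and 71 and 37 counts in WT replicates 1 and 2. On the TMM-scaled CPM scale this was 0 (up to 19.9) and 0.890 (0.108 to 3.22) in GFI1-KO, and 31.7 (24.8 to 40.0) and 15.5 (10.9 to 21.4) in WT. The groups did not overlap in their point values, but the allowance of the shallow GFI1-KO library reached into the interval of WT replicate 2. At the pooled WT rate that library would be expected to give 3.53 counts, so its 0 carries little information. The pooled level in GFI1-KO was 0.0357 of that in WT (exact 95% interval 0.00427 to 0.132, on 2 and 108 counts). SCGN was also the gene of the 5 whose WT libraries differed most, by a ratio of 2.04 (1.35 to 3.13) for replicate 1 over replicate 2.

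RBM46 had 0 and 3 counts in GFI1-KO, against 73 and 66 counts in WT. Its levels were 0 (up to 19.9) and 1.34 (0.275 to 3.90) CPM in GFI1-KO, and 32.6 (25.6 to 41.0) and 27.7 (21.4 to 35.2) CPM in WT. GFI1-KO replicate 2 lay below each WT library with intervals that did not touch. For the 0 of replicate 1 this depends on the limit used: the 3-count allowance of 19.9 CPM lies under the 21.4 CPM where the interval of WT replicate 2 begins, and the two-sided limit of 3.69 counts, 24.4 CPM, overlaps it. The pooled ratio of GFI1-KO to WT was 0.0416 (0.00848 to 0.124, on 3 and 139 counts). The interval of the ratio of WT replicate 1 to replicate 2, 0.832 to 1.67, included equality. An antisense gene, AC009567.1, shares 57 of the 4027 exon bases of RBM46, or 1.42%, and the strand setting of the counting is not given in the sources used here.

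WDR72 had 1 and 5 counts in GFI1-KO, against 86 and 66 counts in WT. This was 6.62 (0.168 to 36.9) and 2.23 (0.723 to 5.19) CPM in GFI1-KO, and 38.4 (30.7 to 47.4) and 27.7 (21.4 to 35.2) CPM in WT. GFI1-KO replicate 2 lay below both WT libraries with counting intervals that did not touch, whereas the single read of replicate 1 gave an interval that overlapped both. The pooled ratio was 0.0761 (0.0275 to 0.170, on 6 and 152 counts).

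RIPOR3 was not low in both GFI1-KO libraries beyond counting error. It had 10 and 42 counts in GFI1-KO, against 221 and 164 in WT. Its level in GFI1-KO replicate 1 was 66.2 CPM (31.8 to 122), beside 68.8 CPM (58.7 to 80.2) in WT replicate 2 and 98.7 CPM (86.1 to 113) in WT replicate 1. GFI1-KO replicate 2, at 18.7 CPM (13.5 to 25.3), was the lowest library, with an interval that touched none of the others. The WT libraries also differed beyond counting error, by a ratio of 1.43 (1.17 to 1.77) for replicate 1 over replicate 2. Taken alone, replicate 1 gave a ratio to the pooled WT level of 0.795 (0.378 to 1.48) and replicate 2 one of 0.224 (0.159 to 0.309). The description of RIPOR3 as lower in GFI1-KO thus rests on replicate 2, and the fitted log2 fold change of -1.76 became -0.33 without it.

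TNFRSF19 had 0 and 53 counts in GFI1-KO, against 142 and 163 in WT. The levels were 0 (up to 19.9) and 23.6 (17.7 to 30.9) CPM in GFI1-KO, and 63.4 (53.4 to 74.7) and 68.4 (58.3 to 79.7) CPM in WT. Both GFI1-KO libraries lay below both WT libraries with intervals that did not touch, also at the two-sided limit for a count of 0. Here the shallow library was informative, since 9.96 counts would be expected at the pooled WT rate and 3.56 at the rate of GFI1-KO replicate 2. TNFRSF19 was still counted in replicate 2: the ratio was 0.358 (0.262 to 0.480) in GFI1-KO replicate 2 alone and 0.335 (0.245 to 0.450) pooled.

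**Figure D1:**
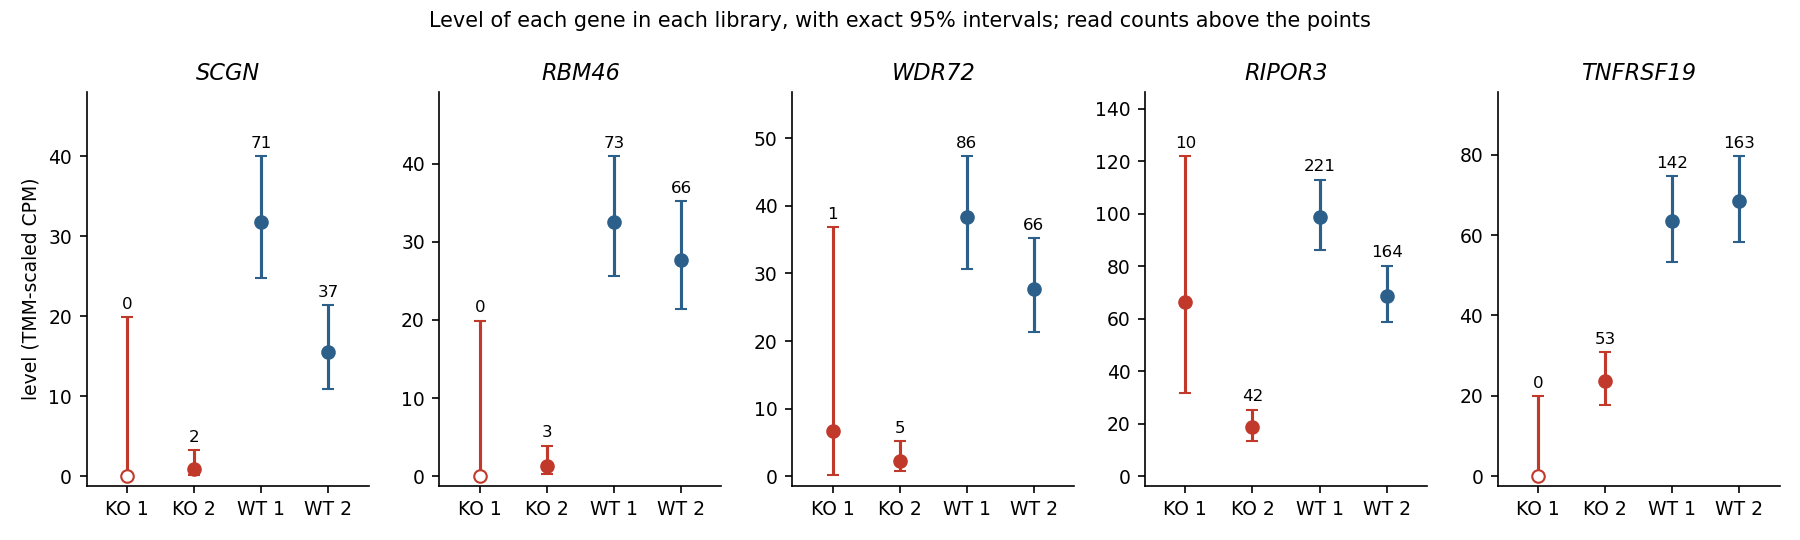
Level of each of the 5 genes (vertical axis, TMM-scaled CPM) in GFI1-KO replicates 1 and 2 (red) and WT replicates 1 and 2 (blue), with exact 95% Poisson intervals and read counts above the points; open points are counts of 0, whose bars reach the 3-count allowance. GFI1-KO replicate 2 is below both WT libraries in each panel, and the 66.2 CPM of RIPOR3 in GFI1-KO replicate 1 sits beside the 68.8 CPM of WT replicate 2.

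By point values, both GFI1-KO libraries lay below both WT libraries for all 5 genes, which held for 22.7% of genes tested. With exact intervals in place of points, it held for TNFRSF19, and for RBM46 with the 3-count allowance only. The share of genes tested was 0.685% with that allowance and 0.659% with the two-sided limit for a count of 0, which was chosen after the data were seen. For GFI1-KO replicate 2 alone the interval lay below both WT intervals for all 5, and for 2.56% of genes tested. These shares are descriptions of the contrast that chose the genes.

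The fitted log2 fold changes, GFI1-KO over WT, were -4.71 for SCGN (SE 0.79), -4.52 for RBM46 (SE 0.62), -3.66 for WDR72 (SE 0.56), -1.76 for RIPOR3 (SE 0.40) and -1.66 for TNFRSF19 (SE 0.36). In the order of fold change among genes called lower, WDR72 was followed by CBFA2T3, a transcriptional corepressor gene, at -2.67. PLEKHA7, at -1.90, stood just before RIPOR3. The kinase gene PRKCA, at -1.74, stood between RIPOR3 and TNFRSF19, and the potassium channel gene KCNH2, at -1.65, just after TNFRSF19. RIPOR3 and TNFRSF19 thus lay in a close run of values, unlike WDR72.

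**Figure D2:**
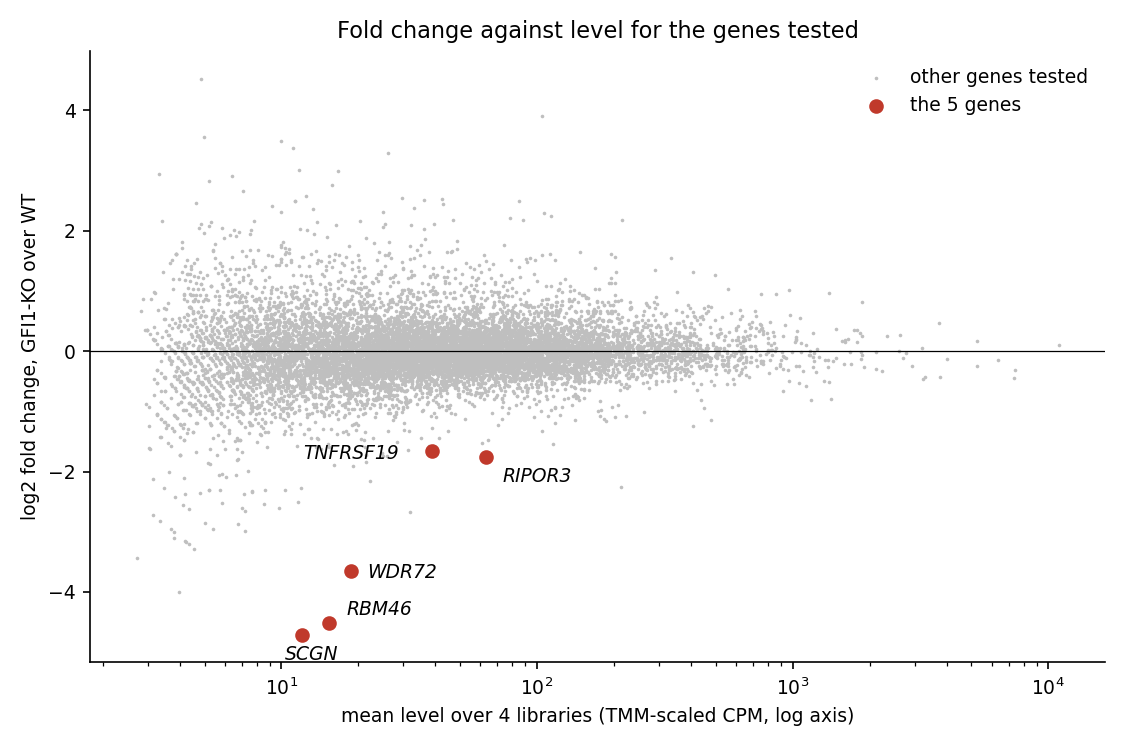
Log2 fold change, GFI1-KO over WT (vertical axis), against the mean TMM-scaled CPM over the 4 libraries (horizontal log axis) for the 11380 genes tested (grey), with the 5 genes in red. SCGN, RBM46 and WDR72, at -4.71, -4.52 and -3.66, lie below other genes of their level, and RIPOR3 and TNFRSF19 lie at the lower edge of the cloud.

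Per length of exon, the 5 genes were not equally expressed in WT cells. Their mean WT levels were 15.9 CPM per kb for SCGN, 13.9 for RIPOR3, 12.9 for TNFRSF19, 7.49 for RBM46 and 3.86 for WDR72. SCGN, the shortest transcript with 1.48 kb of exons, ranged between 10.5 and 21.4 CPM per kb in WT, which covers both RIPOR3 (11.5 to 16.4) and TNFRSF19 (12.4 to 13.4), so these 3 were not ordered beyond their spread. By point values RBM46 (6.88 to 8.10) and WDR72 (3.23 to 4.48) were lower than those 3 and separate from each other. Counting intervals per kb of single WT libraries overlapped between SCGN and RBM46, and between RBM46 and WDR72. Of the genes tested, 74.1% had a lower WT level per kb than SCGN, 50.2% than RBM46 and 29.8% than WDR72. In GFI1-KO replicate 2 the order was TNFRSF19 at 4.61 CPM per kb, RIPOR3 at 3.11, SCGN at 0.601, RBM46 at 0.332 and WDR72 at 0.260. The counting intervals of TNFRSF19 and RIPOR3 overlap per kb in that library, and those of SCGN, RBM46 and WDR72 are too wide to order those 3. In GFI1-KO replicate 1 RIPOR3 was at 11.0 CPM per kb and TNFRSF19 at 0.

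The 5 genes lie on 5 chromosomes (build GRCh38, GENCODE release 29). SCGN (ENSG00000079689) spans chromosome 6, 25652201 to 25701783, and RBM46 (ENSG00000151962) chromosome 4, 154781213 to 154828813, both on the plus strand. WDR72 (ENSG00000166415) spans chromosome 15, 53513741 to 53762878, on the minus strand, and RIPOR3 (ENSG00000042062) chromosome 20, 50586108 to 50691528, on the minus strand. TNFRSF19 (ENSG00000127863) spans chromosome 13, 23570370 to 23676104, on the plus strand. Apart from RBM46, no exon base was shared with another annotated gene.

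The patterns of the 5 genes over the 4 libraries fell into unlike shapes. Likeness was measured as the Euclidean distance between mean-centred log2 CPM values over the 4 libraries, with a smaller distance for a closer pattern. SCGN and RBM46 were each other's nearest gene among all genes tested, at a distance of 0.631. Both were chosen on the values that this distance uses, and both had 0 counts in GFI1-KO replicate 1, so nothing is read from their closeness. RIPOR3 and TNFRSF19 were farthest apart of the 10 pairs, at 5.05. In GFI1-KO replicate 1 RIPOR3 had 10 counts and TNFRSF19 had 0. After RBM46, the genes closest to SCGN were FAM83F (1.21) and TESC (1.37), which encodes the EF-hand protein tescalcin. FAM83F had 0 and 4 counts in GFI1-KO and 31 and 27 in WT, and TESC had 0 and 2 against 21 and 19. CAT, the catalase gene (1.26), and FAM83F (1.32) came after SCGN for RBM46. For WDR72 the closest were TMEM132C (1.09), CBFA2T3 (1.12) and ANK1 (1.27), which encodes an erythrocyte ankyrin.

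For RIPOR3 the closest patterns were those of CYGB (0.301), MS4A3 (0.329) and ADAMTSL4 (0.405), each resting on 1 count in GFI1-KO replicate 1. CYGB, which encodes cytoglobin, had 1 and 3 counts in GFI1-KO and 21 and 13 in WT. For TNFRSF19 they were the transcription factor gene MYC (0.644), TTLL12 (0.704) and QSOX2 (0.810), each with 0 counts in GFI1-KO replicate 1. MYC had 0 and 65 counts in GFI1-KO and 104 and 215 in WT. At the WT rate at least 9 counts would be expected in GFI1-KO replicate 1 for 4079 genes, and 7 of these had 0 there (0.172%), TNFRSF19, MYC and TTLL12 among them. These likenesses rest on few reads of 1 library: without any 1 library, at most 2 of the 3 named genes stayed among the closest 3 for any of the 5.

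No calcium-binding relative of SCGN passed the test. The closest paralogs were barely present: CALB1 (calbindin) had 0 counts in all 4 libraries, and CALB2 (calretinin) had 0 and 2 counts in GFI1-KO and 9 and 10 in WT, too few to test. Of 41 EF-hand genes, 22 could be tested and 0 passed by edgeR, DESeq2 or limma-voom, against a background of called genes, in either direction, of 0.958% by edgeR, 0.409% by DESeq2 and 1.16% by limma-voom. An unadjusted edgeR p under 0.05 was found for 6 of the 22, beside 9.35% of all genes tested. The median log2 fold change was -0.07, beside -0.02 over all genes tested. The most abundant members were the calumenin gene CALU (828 and 871 CPM in GFI1-KO, 705 and 643 in WT; log2 fold change 0.34) and the calmodulin gene CALM3 (-0.08). TESC, described above, was at -3.28 (SE 0.87) and missed the threshold by edgeR (adjusted p = 0.0863). Genes of neuroendocrine secretion gave 9 of 24 that could be tested and 0 that passed by any of the 3 tools (2 at an unadjusted edgeR p under 0.05), with a median of 0.07. Among the most abundant, the peptide-amidating enzyme gene PAM was at 0.19, the vesicle-fusion gene SNAP23 at 0.07 and UCHL1 at 0.74 (edgeR adjusted p = 0.265).

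Among the relatives and partners of RBM46 none passed, and most germline genes had too few counts to test. Of 7 genes that share its RNA-recognition motif type or partner with it in mouse germ cells, 6 could be tested and 0 passed by any of the 3 tools, with 0 at an unadjusted edgeR p under 0.05 and a median of -0.11. A1CF, the cofactor of apolipoprotein B editing, had 0 counts in each library. RBM47 had 0 and 13 counts in GFI1-KO and 12 and 8 in WT (log2 fold change 0.27). The partner gene YTHDC2 was at 33.1 and 39.2 CPM in GFI1-KO and 44.2 and 39.0 CPM in WT (log2 fold change -0.12), and HNRNPR and SYNCRIP were at -0.22 and -0.10. Of 32 germline and meiosis genes, 14 had 0 counts in every library, including DDX4 and DAZL, and 7 could be tested. PRDM1, a repressor gene used by germ cell precursors and by many other cell types, rose to 113 and 103 CPM in GFI1-KO, against 43.3 and 51.6 CPM in WT (log2 fold change 1.15, SE 0.25, edgeR adjusted p = 0.0409), against a background of 0.773% of genes called higher. Its call was kept in 6 of 14 alternative fits (adjusted p 0.00177 to 0.594 over edgeR, DESeq2 and limma-voom). The other 6 did not pass, among them TRIP13 (-0.10), REC8 (0.96) and MLH3 (-0.58), and the median was -0.10.

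In the pathways of WDR72 no gene passed. Of 31 rabconnectin and V-ATPase genes, 25 could be tested, and 0 passed by any of the 3 tools (1 at an unadjusted edgeR p under 0.05), with a median of -0.02. WDR7, the nearest relative, had 1 and 23 counts in GFI1-KO and 25 and 48 in WT (log2 fold change -0.67, SE 0.48, edgeR adjusted p = 0.801). The most abundant pump genes, ATP6V1C2, ATP6AP1 and ATP6V1B2, were at 0.07, -0.23 and 0.44. Of 22 enamel genes, 9 had 0 counts in every library. The 6 that could be tested had a median of 0.14, and 0 passed by any of the 3 tools (1 at an unadjusted edgeR p under 0.05). SP6, an enamel and hair transcription factor gene, was at 0.25, RELT at 0.29 and FAM83H at -1.22 (SE 0.42, edgeR adjusted p = 0.254).

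The relatives of RIPOR3 differed in level. RIPOR1 was abundant, at 152 and 224 CPM in GFI1-KO and 169 and 202 CPM in WT (log2 fold change 0.12, SE 0.24, edgeR adjusted p = 0.966). RIPOR2 was rare, with 0 and 2 counts in GFI1-KO and 13 and 16 in WT (-2.82, SE 0.94, edgeR adjusted p = 0.202). Of 23 family and pathway genes, all 23 could be tested and 0 passed by any of the 3 tools (3 at an unadjusted edgeR p under 0.05), with a median of 0.07. The GTPase genes RHOA and RHOB were at -0.09 and -0.12.

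No other receptor or adaptor of the TNFRSF19 pathways passed. Of 28 other TNF receptor superfamily genes, 16 could be tested, and 0 passed by any of the 3 tools (2 at an unadjusted edgeR p under 0.05), with a median of 0.13. EDAR, a close relative, had 1 count in all 4 libraries together. RELT was at 0.29, and NGFR, the neurotrophin receptor, had 1 and 10 counts in GFI1-KO and 35 and 16 in WT (log2 fold change -1.25, SE 0.63, edgeR adjusted p = 0.588). The most abundant receptors, TNFRSF10B, TNFRSF1A and CD40, were at -0.08, 0.34 and 0.87 (edgeR adjusted p = 0.128 for CD40). Of 13 Nogo receptor complex and TRAF adaptor genes, 10 could be tested and 0 passed by any of the 3 tools, with 0 at an unadjusted edgeR p under 0.05. Their median was 0.01, and LINGO1, RTN4 and TRAF4 were at 0.51, 0.24 and 0.00.

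Wnt/beta-catenin targets had the lowest median of the 10 lists, -0.30, with 10 of 15 tested values below 0. By any of the 3 tools 0 passed, and 3 (MYC, SP5 and BAMBI) had an unadjusted edgeR p under 0.05. In 7 of the 15, both GFI1-KO libraries lay below both WT libraries by point values, beside 22.7% of all genes tested. Of these 7, AXIN2, RNF43, SP5 and MYC had 0 counts in GFI1-KO replicate 1. The allowance of 19.9 CPM in that library covers the WT levels of AXIN2, RNF43 and SP5, so it cannot place them. MYC was at -1.44 (SE 0.41, edgeR adjusted p = 0.135), and its value in GFI1-KO replicate 1 is the 0 described above. The abundant members CCND1, BAMBI and CD44 were at 0.26, -0.61 and -0.13. The classical feedback target AXIN2, named after its value was seen, had 0 and 15 counts in GFI1-KO and 20 and 24 in WT (-0.65, edgeR adjusted p = 0.857).

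**Figure D3:**
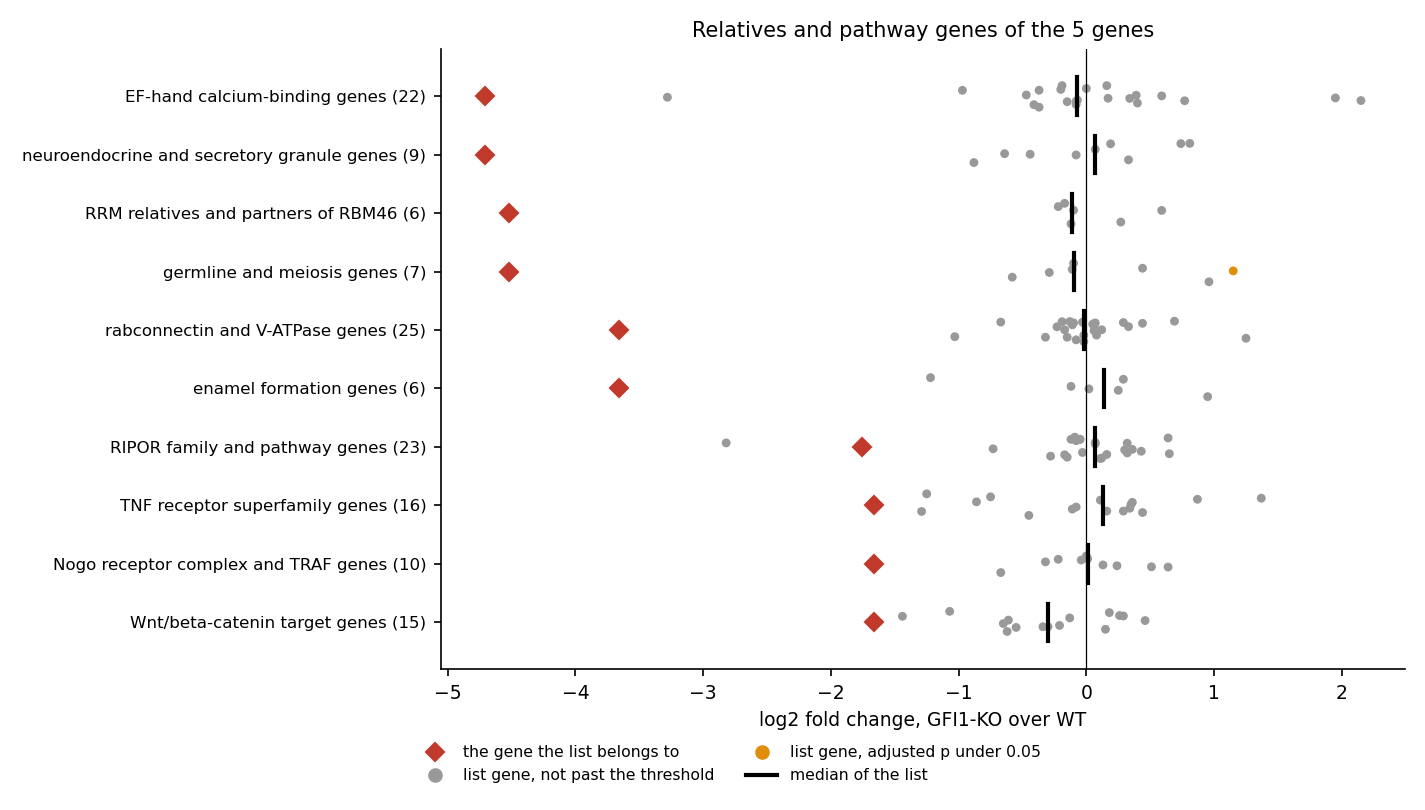
Log2 fold change, GFI1-KO over WT (horizontal axis), of the tested genes in 10 lists of relatives and pathway partners, with the number tested in brackets, list medians as black bars and the gene each list belongs to as a red diamond. The medians lie between -0.30 and 0.14, and 1 list gene, PRDM1 at 1.15, passed the threshold.

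Genes next to the 5 on their chromosomes were examined because position played no part in the choice. Of the 30 nearest genes, 3 on each side of each gene, 8 had 0 counts in every library and 13 could be tested. By edgeR and by DESeq2 0 passed, and 1 passed by limma-voom, beside 1.16% of all genes by that tool. An unadjusted edgeR p under 0.05 was found for 4 of the 13, beside 9.35% of all genes tested. The median log2 fold change of the 13 was -0.44, with 9 values below 0. In 7 of the 13 both GFI1-KO libraries lay below both WT libraries by point values, beside 22.7% of all genes tested. Of these 7, RIPOR2, MIPEP and RAB27A had 0 counts in GFI1-KO replicate 1. The allowance of 19.9 CPM in that library covers their WT levels, so it cannot place them. Around RBM46 0 of the 6 neighbours could be tested, and LRAT and NPY2R, on either side of it, had 0 counts in every library. RBM46 was thus counted in WT cells between adjacent genes not detected at this depth. Farther out, FGA and FGG also had 0 counts in every library. MAP9 had 0 and 5 counts in GFI1-KO and 8 and 8 in WT, and GUCY1A1 had 1 and 2 against 2 and 2.

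SCGN had the histone genes HIST1H2AA and HIST1H2BA, at 0 counts in each library, on one side, and on the other CARMIL1, a regulator of actin capping, which was at -1.03 (SE 0.38) and did not pass (edgeR adjusted p = 0.311). RIPOR2, a relative of RIPOR3, lies 848 kb from SCGN and is its second neighbour on that side. Beside TNFRSF19, MIPEP, which encodes a mitochondrial peptidase, was at -0.85 (edgeR adjusted p = 0.698). For RIPOR3, PTPN1, 75.8 kb from RIPOR3, was at 0.04 and BCAS4 at -0.79 (edgeR adjusted p = 0.607), while FAM214A and RSL24D1 beside WDR72 were at -0.17 and -0.64 (edgeR adjusted p = 0.970 and 0.434).

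Blood and pluripotency markers summed to less than the endothelial markers, and to less in GFI1-KO than in WT. The summed level of blood markers over 12 genes was 59.6 and 67.2 CPM in GFI1-KO and 119 and 119 CPM in WT. Of the 5 that could be tested, 0 passed by edgeR (median log2 fold change -1.62). All 5 had both GFI1-KO libraries below both WT libraries by point values, beside 22.7% of all genes tested. SPN, ITGA2B, SPI1 and CD33 had 0 counts in GFI1-KO replicate 1. Its allowance of 19.9 CPM lies above their WT levels, at most 19.3 CPM, so that library cannot place them. Most of the sum in each library came from MYB, with 53.0 and 52.1 CPM in GFI1-KO and 81.3 and 60.0 CPM in WT, while PTPRC, HBE1 and HBZ had 0 counts in every library. Pluripotency markers summed over 7 genes to 79.5 and 108 CPM in GFI1-KO and 144 and 144 CPM in WT, mostly from DPPA4, with NANOG and DNMT3L at 0. The mesenchymal sums were 2232 and 2376 CPM in GFI1-KO and 2978 and 2143 CPM in WT over 10 genes, the epithelial and endodermal sums 225 and 542 CPM against 657 and 451 CPM over 9 genes (AFP at 0), and the neuroectodermal sums 13.2 and 4.01 CPM against 4.47 and 5.46 CPM over 7 genes (SOX1, DCX and NEUROG2 at 0). The part of these cell types in the levels of the 5 genes was not tested.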

How the data were processed

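RNA was extracted with Trizol and made into Illumina TruSeq libraries from total RNA, per the labels' protocols. The authors deposited raw read counts per gene, 1 column per library. The submitters' processing notes name DESeq 1.18.1, HTSeq 0.6.0, SAMtools 1.3.1 and HISAT2 2.0.4 and the builds hg38 and GRCh38, without roles. The sources used here give no annotation version, read filter or strand setting. Of 19912 identifiers, 19902 matched GENCODE release 29.

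Counts were tested with edgeR 4.0.16 (R 4.3.3): TMM scaling, filterByExpr (minimum count 10, total 15), glmQLFit with its earlier dispersion form and glmQLFTest, GFI1-KO over WT, called at a Benjamini-Hochberg adjusted p under 0.05 over 11380 genes. Fold changes used a prior count of 0.125, and the SE is the unshrunken log2 fold change over the square root of F. Ratios of pooled counts have exact conditional 95% intervals. Whether replicates were separate cultures is not stated, so the spread behind each p-value is that between libraries and may be technical. Scripts were tested on simulated data. Alternatives were DESeq2 1.42.0, limma-voom (limma 3.58.1), the newer dispersion, 3 scalings, 2 filters, a replicate block, omission of the 20 genes with most counts and each library left out.

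The members and lists (10 pathway lists with 241 entries, 6 marker lists) were chosen with earlier results of these data known. Named were the 5 genes, GFI1 and GATA2; of each list the called genes, the 3 most abundant others and the nearest paralogs; of the neighbours the called genes and the nearest tested on each side; the 3 genes with the closest pattern to each gene (log2 CPM with prior count 2); and the called genes next in order of fold change. RIPOR2 and RAB27A as neighbours, the untested neighbours and the marker genes were named after their values were seen. So were list genes named for having 0 counts or a small unadjusted p. Motifs were chosen after the data were seen. Some genes that the naming rule picks are not reported here.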

Additional observations from a re-analysis of the deposited data

How the results depend on the processing

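The 5 genes kept a negative log2 fold change in all 14 alternatives run. Leaving out 1 library gave -5.13 to -0.23 for SCGN, -4.64 to -0.60 for RBM46, -3.86 to -2.29 for WDR72, -2.16 to -0.33 for RIPOR3 and -1.78 to -1.48 for TNFRSF19. The values nearest 0 for SCGN and RBM46 are the 3-count allowance of GFI1-KO replicate 1, where both had 0 counts once GFI1-KO replicate 2 was left out, and show the depth limit of that library. TNFRSF19 also had 0 counts in GFI1-KO replicate 1. Its value without GFI1-KO replicate 2 is thus likewise limited by depth, and its narrow range is no measure of stability. Limma-voom gave -3.67 for SCGN.

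The count of genes called, 109, was 33 with DESeq2, 58 with the newer dispersion, 58 with upper-quartile scaling, 72 with library totals only, 305 with no low-count filter, 50 at a mean of at least 5 CPM and 327 with the replicate block, and 62 to 373 when 1 library was left out (62 with WT replicate 1 left out, 373 and 274 with GFI1-KO replicate 1 or 2 left out). The cause was not tested. The germline list's 1 call became 0 with DESeq2, the newer dispersion, upper-quartile scaling, library totals only and a mean of at least 5 CPM, and was 0 to 1 without 1 library; without GFI1-KO replicate 2 the 1 gene called was REC8, not PRDM1. With no low-count filter, TESC gave the EF-hand list 1 call, MYC the Wnt list 1, and the neighbours had 1. With the replicate block, NCALD, CD40 and MYC gave the EF-hand, TNF receptor and Wnt lists 1 call each, and the neighbours had 1. Limma-voom called 1 neighbour. Leaving out 1 library gave 0 to 2 calls in the EF-hand list (TESC and RCN3 without GFI1-KO replicate 1), and 0 to 1 in the neuroendocrine, V-ATPase, RIPOR and Wnt lists and the neighbours. In the RRM, enamel and Nogo lists 0 passed in each of the 14 alternatives. Of 154 comparisons of list and neighbour medians, 144 moved by less than the spread between replicates; the other 10 left out a library.

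Replicate numbers are shared between genotypes, but the deviations of same-numbered libraries correlated at 0.116 over 11380 genes and at 0.212 over the 3839 genes with at least 10 counts in every library (across genes, which are not independent). With 2 pairs and no label that ties the numbers, the samples share only a number.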
